A study of Mus musculus with 4 samples.

Results

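The genes described here encode proteins of the cytosolic ribosome. They were chosen by symbol: every gene with a probe set whose only platform symbol begins with Rpl or Rps and a number, or is Rplp0, Rplp1, Rplp2 or Rpsa, without the Rps6k kinases and pseudogene symbols. Of 18194 genes with such a probe set, 50 met the rule, 26 with a large subunit symbol (Rpl) and 24 with a small subunit symbol (Rps), and each was represented by its brightest probe set over the 4 arrays. By name, 43 are ribosomal proteins proper, 6 are paralogs (Rpl3l, Rpl7l1, Rpl22l1, Rpl39l, Rps4l and Rps27l), and Rps19bp1 encodes a protein that binds Rps19 and is not part of the ribosome. Other ribosomal protein genes, Rplp1 and Rps27a among them, had no probe set of their own under this rule and were not analysed as genes here.

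The ribosome joins a small subunit, which reads the messenger RNA, to a large subunit, which forms the peptide bond. Its proteins are made in near equal numbers, and their messenger RNAs share a pyrimidine-rich tract at the start that lets the kinase mTOR and the binding protein Larp1 tune their translation together. In mouse skin, reduced Rps19 or Rps20 is known to darken the skin through p53, so single members can have effects of their own.

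RNA of back skin was hybridised to 4 Affymetrix arrays, 2 from K5-IKKbeta transgenic and 2 from wild type (WT) mice. The transgene expresses IKKbeta, a kinase that activates NF-kB, from the keratin K5 promoter region, which is active in basal keratinocytes of epidermis and hair follicle and not in the whole tissue. Both groups were 32-day-old males of the strain given as C57BL6 X DBA2, and the WT samples are also labelled control. Each array held RNA pooled from 3 mice of 1 genotype, so errors are the spread between 2 pools and that between single mice cannot be seen.

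Values are log2 signals, and fold changes are K5-IKKbeta minus WT on the log2 scale. A signal depends on the probes as well as on the RNA, so signals of different genes do not rank their abundance. In whole skin, fewer cells of a type and less RNA per cell cannot be told apart. Over all probe sets the array medians were 6.96 and 6.95 in K5-IKKbeta and 6.92 and 6.91 in WT skin. The basal keratinocyte keratin Krt14, which marks the labelled tissue, had 13.81 and 13.50 in K5-IKKbeta and 13.19 and 13.07 in WT pools. Hair shaft genes were lower in K5-IKKbeta skin in 48 of 48 tested (median of 49 measured -6.53), and leukocyte markers were higher in 11 of 12 tested.

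Ribosomal protein genes differed little between K5-IKKbeta and WT skin. Of 49 tested members, 1 was higher (Rpl3l) and 1 was lower (Rps6), which is 4.08% of them. Over all 13074 tested genes 33.9% passed the same threshold, 23.4% higher and 10.6% lower (limma, Benjamini-Hochberg adjusted p under 0.05). The median fold change of the 50 members was 0.03, against 0.09 over all tested genes, and 39 of 50 members lay within 0.15 of 0. The sign of the members' median depends on scaling: it was -0.01 with arrays centred on their median and -0.03 with hair shaft genes left out before a new normalization. Among all tested genes 34.8% lay that close. The difference between these shares was not tested. Without WT pool 1 18.7% and without WT pool 2 17.7% of all tested genes passed, and of the members 2 and 1.

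**Figure D1:**
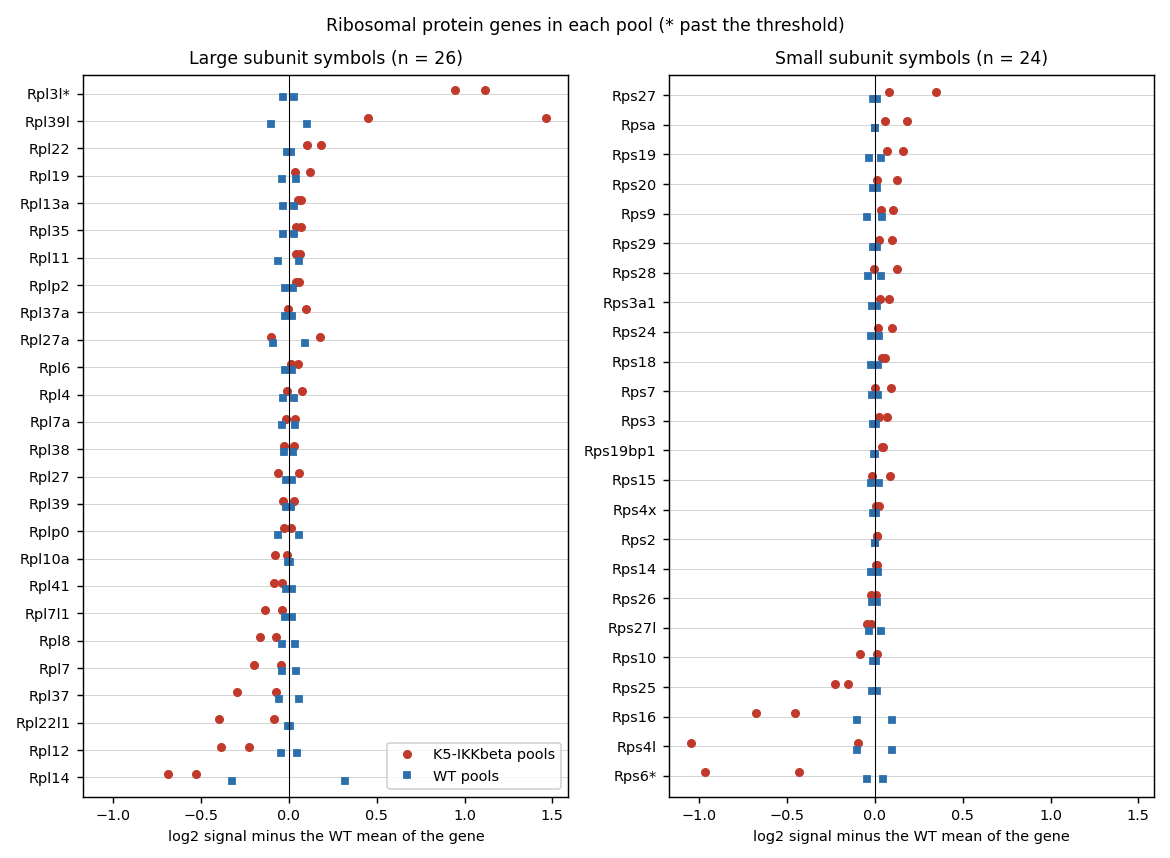
Log2 signal of each of the 50 genes in each pool, minus that gene's WT mean (horizontal axis), for large subunit symbols (left, n = 26) and small subunit symbols (right, n = 24). Red circles are the 2 K5-IKKbeta pools and blue squares the 2 WT pools. Most genes lie within 0.15 of 0 in both groups, and the wide gaps are at Rpl3l, Rpl39l, Rpl14, Rps16, Rps4l and Rps6.

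The bright members carried this pattern. The 35 with a mean signal above 12 had fold changes between -0.24 and 0.14, with a median of 0.05, and 34 of them lay within 0.15 of 0. None passed the threshold in limma's test, and none had an unadjusted p under 0.05. Of the 342 other genes with a mean signal above 12, 38.9% passed, 26.6% higher and 12.3% lower, and 33.3% lay within 0.15 of 0. Of the 75 other genes with a mean signal above 13, 28 were higher and 8 lower (48%).

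A call that is missed does not show that a gene was equal in both groups. The 95% intervals of the 35 bright members bound this: their outer end corresponded to a fold of 1.17 to 1.47, with a median of 1.22. The widest belonged to Rpl22l1, and it alone lay more than 0.15 from 0. The groups' pools did not overlap for 17 of these 35 genes (48.6%), against 74.9% of the other genes of that signal, and for 28 of all 50 members (56%), against 69.5% of all tested genes.

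**Figure D2:**
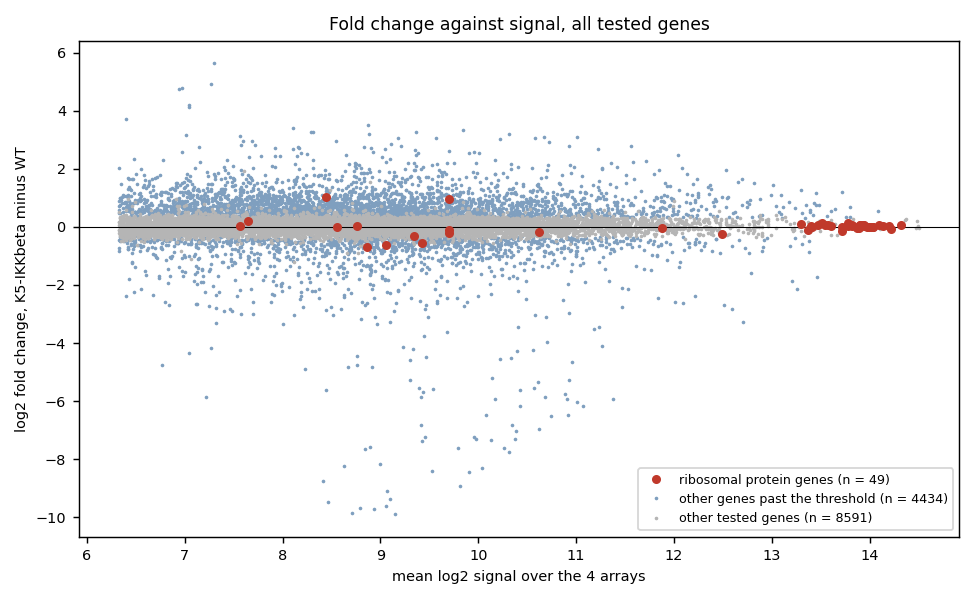
Fold change, K5-IKKbeta minus WT on the log2 scale (vertical axis), against mean log2 signal over the 4 arrays (horizontal axis) for 13074 tested genes. Red points are the 49 tested ribosomal protein genes, blue points other genes past the threshold and grey points the rest. The red points above a signal of 12 form a flat row near 0, while 38.9% of other genes above that signal passed the threshold.

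Among proteins of the large subunit, the stalk that recruits translation factors is built on Rplp0, to which Rplp1 and Rplp2 bind. Rplp0 had 14.01 and 14.05 in K5-IKKbeta pools and 13.98 and 14.10 in WT pools (fold change -0.01, adjusted p = 0.964 in limma). Rplp2 had 14.23 and 14.21 in K5-IKKbeta and 14.15 and 14.20 in WT pools (fold change 0.05, adjusted p = 0.718). For Rplp0 the WT pools enclosed the K5-IKKbeta pools, and for Rplp2 both K5-IKKbeta pools were just above both WT pools. The remaining genes of this and the next paragraph were picked for their known roles after values were seen. Rpl11, which binds and inhibits Mdm2 when ribosome assembly fails, had 13.49 and 13.51 in K5-IKKbeta and 13.39 and 13.51 in WT pools. Rpl38, whose loss in mice changes translation of Hox messenger RNAs, had 14.03 and 13.97 in K5-IKKbeta and 13.97 and 14.02 in WT pools. Rpl13a, which can leave the ribosome to silence inflammatory messenger RNAs after interferon-gamma in human cells, had 13.92 and 13.94 in K5-IKKbeta and 13.84 and 13.90 in WT pools. Their fold changes were 0.05 for Rpl11, 0.00 for Rpl38 and 0.06 for Rpl13a. With the mean of its 4 probe sets the fold change of Rpl13a was -0.07, and the dimmest of them gave -0.34.

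Among proteins of the small subunit, Rpsa, also known as a receptor for laminin, had 13.90 and 13.77 in K5-IKKbeta and 13.71 in both WT pools. Its fold change of 0.12 was the largest of the small subunit members above 12, and it did not pass (adjusted p = 0.387 in limma). With the mean of its probe sets the fold change was -0.12. Rps19 had 13.40 and 13.31 in K5-IKKbeta and 13.21 and 13.27 in WT pools, and Rps20 had 13.91 and 14.02 in K5-IKKbeta and 13.88 and 13.90 in WT pools. On these probe sets both K5-IKKbeta pools lay above both WT pools for these genes of the dark skin phenotype, and neither gene passed the threshold. For Rps20 the nearest pools were 13.906 in K5-IKKbeta and 13.904 in WT. The fold change of Rps19 was 0.11 (limma adjusted p = 0.409). That of Rps20 was 0.07 (adjusted p = 0.615). Another bright probe set of Rps20 had 13.69 and 13.97 in K5-IKKbeta and 13.85 and 13.92 in WT pools (fold change -0.05). The mean of all probe sets of Rps20 gave -0.04. Rps29, the member of highest signal, had 14.39 and 14.32 in K5-IKKbeta and 14.28 and 14.30 in WT pools.

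Large and small subunit genes were then set side by side. The 26 large subunit members had a median fold change of 0.01, with 14 above 0 and 12 below. The 24 small subunit members had a median of 0.04, with 17 above 0 and 7 below. Of members above a signal of 12, 11 of 18 large and 15 of 17 small subunit genes lay above 0, with medians of 0.02 and 0.05. Of the 342 other genes above that signal, 214 lay above 0. Such counts depend on scaling. Of all members, 31 lay above 0, against 22 with arrays centred on their median. With hair shaft genes left out before a new normalization, 11 did. The median signal of the large minus that of the small subunit genes was -0.23 and -0.28 in K5-IKKbeta pools and -0.30 and -0.26 in WT pools, so the pools of the genotypes overlapped. They did not overlap over the members above 12, with -0.15 and -0.13 in K5-IKKbeta and -0.06 and -0.02 in WT pools. Over the ribosomal proteins proper they were apart by less than 0.01, with -0.25 and -0.24 in K5-IKKbeta and -0.23 and -0.24 in WT pools. The difference between the subunits' median fold changes was -0.04, and it took the other sign (0.02) without K5-IKKbeta pool 2. The difference in median signal over all members, which is another measure, had an SD of 0.03 between pools of a genotype. Members share their arrays and are not replicates, so no test was made over them.

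Rps6, the small subunit protein phosphorylated by the S6 kinases, was the member that fell. Its probe set had 8.24 and 8.78 in K5-IKKbeta pools and 9.25 and 9.16 in WT pools. Both K5-IKKbeta pools lay below both WT pools. The means were 8.51 ± 0.38 in K5-IKKbeta and 9.21 ± 0.06 in WT skin (SD, n = 2 each), 1.62-fold lower (fold change -0.70, limma adjusted p = 0.0297). The call was lost without WT pool 1 (adjusted p = 0.139) and without WT pool 2 (adjusted p = 0.104). Of 9 probe sets annotated to both Rps6 and its pseudogene Rps6-ps4 none passed, with fold changes from -0.35 to 0.03, and the 4 of them with a signal over 12 had -0.09 to 0.03. The brightest had 14.38 and 14.32 in K5-IKKbeta and 14.30 and 14.36 in WT pools.

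Other members were read by dim probe sets too. The rule admits probe sets of 1 symbol, and 9 ribosomal proteins proper (Rpl12, Rpl14, Rpl27a, Rpl37, Rpl39, Rps6, Rps16, Rps25 and Rps27) were represented by one of signal 12 or lower while a brighter one lists their symbol beside others. Rpl14 had 8.67 and 8.83 in K5-IKKbeta and 9.04 and 9.68 in WT pools on its own probe set (fold change -0.61, limma adjusted p = 0.0747). It passed after a new quantile normalization (adjusted p = 0.0362). Its fold change was -0.93 without WT pool 1 and -0.28 without WT pool 2. The 5 probe sets annotated to Rpl14 and Rpl14-ps1 gave -0.15 to -0.04. Rpl12 had 9.27 and 9.11 in K5-IKKbeta and 9.45 and 9.54 in WT pools (fold change -0.31, adjusted p = 0.0692, and 0.0363 after a new quantile normalization), while 2 shared probe sets gave 0.01 and 0.07. Rps16, whose product lies in the small subunit, was not tested, since its probe set had only 3.72 and 3.50 in K5-IKKbeta and 4.28 and 4.08 in WT pools, under the 25th percentile of each array. A shared probe set of Rps16, at a signal of 14.18, had a fold change of -0.03, and the other one 0.05.

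Over all these probe sets, fold changes were set against signal. Probe sets with a ribosomal protein symbol made up 128 of the 271 with a mean signal over 13. Of those, the 56 with 1 symbol had a median fold change of 0.05 (13 below 0) and the 72 with several symbols 0.02 (20 below 0), and none of either passed in limma's fit over all 45101 probe sets. At signals of 13 or below, 38 of 50 probe sets with 1 symbol were below 0 (median -0.17), and 31 of 38 with several symbols (median -0.13). Under a signal of 8, 14 of 18 and 11 of 15 were below 0. Of all 29919 probe sets in that range 54.7% were, with a median of -0.02. Between 8 and 10, 12 of 16 and 11 of 11 were below 0, against 40.2% of all 10814 probe sets in that range, whose median was 0.08.

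Probe sets of a single gene were then compared. For 11 genes the brightest probe set had a mean above 12 and the dimmest one below 10, and the dimmest had the lower fold change in 11 of 11, with differences of -0.48 to -0.01 and a median of -0.29. The dimmest ones of Rpl35, Rps3, Rps18, Rps20, Rps24 and Rpsa had means of 4.46 to 6.30. These lie under the filter of 6.33 used for genes, and the probe sets did not pass in limma's fit over all probe sets. Over all 24 genes with several probe sets the dimmest had the lower fold change in 17 and the higher in 7, with a median difference of -0.14. Among the 7 were Rps6 (difference 0.52) and Rpl22 (difference 0.27). For Rps3, the smallest difference of the 11, the brightest had 13.78 and 13.83 in K5-IKKbeta and 13.75 and 13.77 in WT pools, and the dimmest 6.28 and 5.78 in K5-IKKbeta and 6.12 and 5.85 in WT pools (fold change 0.04). A probe set of Rps3 between them in signal had 7.82 and 8.08 in K5-IKKbeta and 8.48 and 8.62 in WT pools, and it was lower (fold change -0.60, limma adjusted p = 0.0268 over all probe sets). Of 216 probe sets, 2 were higher and 5 lower, against 10.4% higher and 5.88% lower among all probe sets (16.3% either way). The 2 that were higher were that of Rpl3l and one annotated to both Rpl13a and the cytokine gene Flt3l (signal 6.14, fold change 1.16). The signal limits were chosen after values were seen, and where each probe set lies in its transcript was not analysed here.

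**Figure D3:**
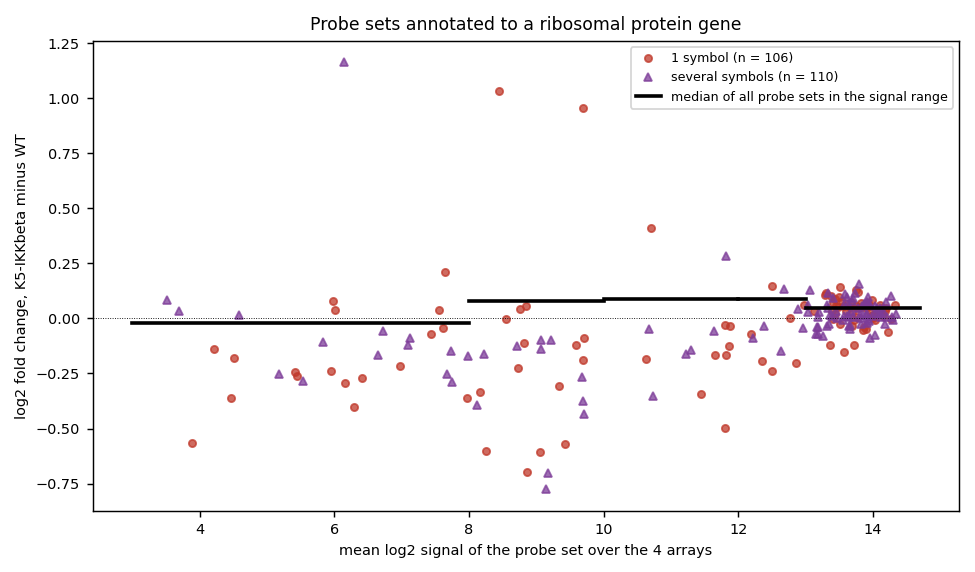
Fold change, K5-IKKbeta minus WT on the log2 scale (vertical axis), against mean log2 signal (horizontal axis) for 216 probe sets annotated to a ribosomal protein gene, 106 with that symbol only (circles) and 110 with several symbols (triangles). Black bars are the median fold change of all probe sets in each signal range; the points lie close to 0 above a signal of 13 and mostly below the bars between 8 and 10.

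The fold changes of the 6 paralogs ranged from -0.57 to 1.03, with a median of -0.06. Rpl3l, a paralog of Rpl3 known from heart and skeletal muscle, had 9.05 and 8.87 in K5-IKKbeta pools and 7.89 and 7.96 in WT pools. The pools of the groups were clearly apart, with means of 8.96 ± 0.12 in K5-IKKbeta and 7.93 ± 0.05 in WT skin (SD, n = 2 each). Rpl3l rose 2.05-fold (fold change 1.03 with standard error 0.10, limma adjusted p = 0.00101), and it passed under 13 of 13 alternative settings, with fold changes of 0.94 to 1.12. Skeletal muscle markers were higher beside it in 11 of 12 genes, with a median fold change of 0.95. Their mean signal was 13.11 and 12.93 in K5-IKKbeta and 12.10 and 12.02 in WT pools. Fast troponin T, Tnnt3, for one, had 12.96 and 12.69 in K5-IKKbeta and 11.66 in both WT pools (fold change 1.17, adjusted p = 0.00105). The part of muscle in the value of Rpl3l was not tested.

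Rpl39l, a paralog of Rpl39 known for its high level in testis, had 9.67 and 10.69 in K5-IKKbeta pools and 9.32 and 9.12 in WT pools. Both K5-IKKbeta pools were higher than both WT pools, but they differed from each other by more than the lower one differed from WT. Its fold change of 0.96 did not pass (limma adjusted p = 0.0609, 95% interval 0.19 to 1.72). The fold change was 1.47 without K5-IKKbeta pool 1 and 0.45 without K5-IKKbeta pool 2. Rpl39 itself had 8.52 and 8.58 in K5-IKKbeta and 8.57 and 8.54 in WT pools.

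Of the other paralogs none passed. Rpl22l1 had 12.22 and 12.53 in K5-IKKbeta and 12.62 and 12.61 in WT pools (fold change -0.24, limma adjusted p = 0.204). Its partner Rpl22, an RNA-binding protein that represses Rpl22l1 in mouse cells, had 13.62 and 13.54 in K5-IKKbeta and 13.43 and 13.45 in WT pools (fold change 0.14, adjusted p = 0.297). The K5-IKKbeta pools lay below WT for Rpl22l1 and above WT for Rpl22, without overlap in either. The fold change of Rpl22l1 was -0.40 without K5-IKKbeta pool 2 and -0.08 without K5-IKKbeta pool 1. Rps4l had 8.67 and 9.62 in K5-IKKbeta and 9.81 and 9.61 in WT pools, so only 1 K5-IKKbeta pool was low (fold change -0.57, adjusted p = 0.192). The fold change of Rps4l was -1.04 without K5-IKKbeta pool 2 and -0.09 without K5-IKKbeta pool 1. Its X-linked partner Rps4x, of the small subunit, had 14.01 and 14.03 in K5-IKKbeta and 14.02 and 14.00 in WT pools.

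Rps27l, a paralog of Rps27 whose gene is a target of p53, had 11.85 and 11.88 in K5-IKKbeta and 11.87 and 11.93 in WT pools. Its partner Rps27, a zinc-finger protein of the small subunit, had 7.89 and 7.62 in K5-IKKbeta and 7.53 and 7.56 in WT pools (fold change 0.21, limma adjusted p = 0.224). Rpl7l1 had 9.61 and 9.71 in K5-IKKbeta and 9.73 and 9.77 in WT pools, and Rpl7 had 13.58 and 13.74 in K5-IKKbeta and 13.74 and 13.82 in WT pools (fold change -0.09 for Rpl7l1 and -0.12 for Rpl7). Rps19bp1, which regulates the deacetylase Sirt1, had 8.78 and 8.79 in K5-IKKbeta and 8.74 in both WT pools.

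**Figure D4:**
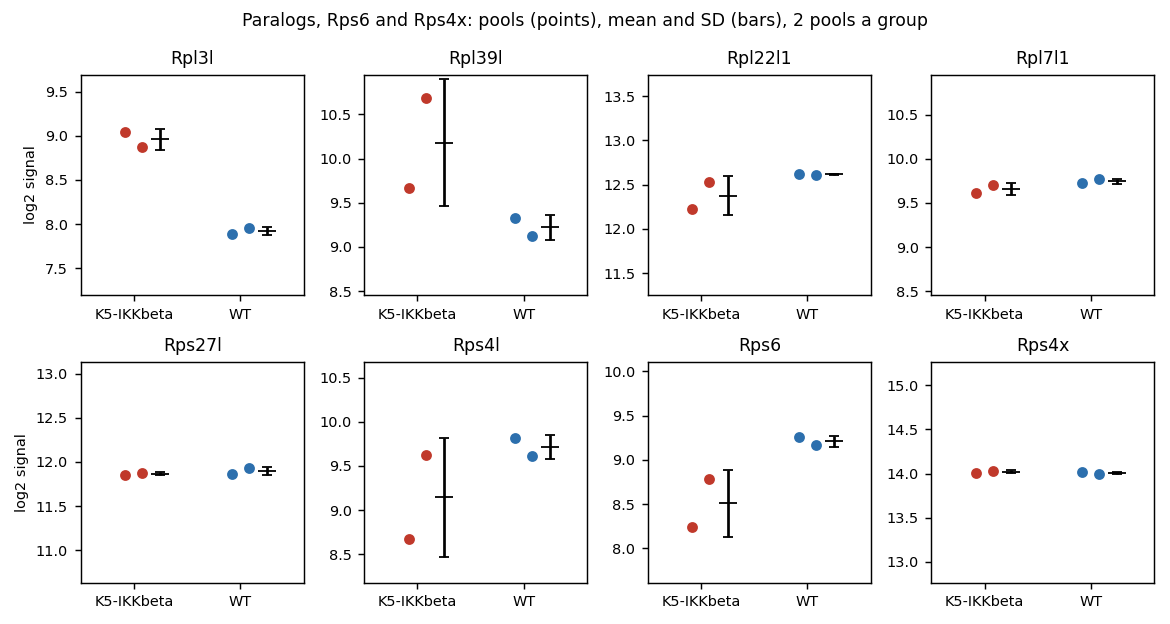
Log2 signal (vertical axis, the same span in every panel) of the 6 paralogs, Rps6 and Rps4x in K5-IKKbeta pools (red, left) and WT pools (blue, right); black bars are the mean and SD of 2 pools. Rpl3l is the panel whose groups stand apart with little spread, while 1 K5-IKKbeta pool stands apart for Rpl39l and Rps4l.

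Promoters of the members were also described, and whether their letters relate to the fold changes was not tested. RefSeq windows (GRCm38.p6) from 250 bases before to 50 after an annotated start were found for 44 of 50 members. The letters CCGGAAG, the core bound by Ets factors such as Gabpa, stood on either strand in 19 of 38 ribosomal proteins proper (50%) and 2 of 5 paralogs, against 9.93% of 27025 genes of any kind and 18.5% of 10493 tested genes. The letters TATAAA stood on either strand in 5 of 38 (13.2%), against 15.7% of all genes and 9.79% of tested genes. A run of at least 8 pyrimidines (C or T) on the gene's strand, within 50 bases of the start, stood in 32 of 38 (84.2%), against 39.3% of all genes and 37.6% of tested genes. The matches describe letters and not binding, their overlap was not counted, and no test was made. The 100 bases before the start are shown, with CCGGAAG or its reverse complement CTTCCGG in capitals, for the paralogs Rpl3l and Rpl39l, for Rpl39, and for 3 members with a match and a fold change within 0.15 of 0. Rpl3l has another annotated start, which is not shown.
Rpl3l, chr17:24727726-24727825, plus strand: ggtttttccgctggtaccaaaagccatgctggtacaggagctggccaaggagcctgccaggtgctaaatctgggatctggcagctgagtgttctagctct
Rpl39l, chr16:10170128-10170227, plus strand: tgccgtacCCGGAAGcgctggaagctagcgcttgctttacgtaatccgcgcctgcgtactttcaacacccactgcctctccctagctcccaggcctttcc
Rpl39, chrX:37085223-37085322, minus strand: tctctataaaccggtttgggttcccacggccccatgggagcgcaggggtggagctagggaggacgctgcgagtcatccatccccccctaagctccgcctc
Rps18, chr17:33955666-33955765, minus strand: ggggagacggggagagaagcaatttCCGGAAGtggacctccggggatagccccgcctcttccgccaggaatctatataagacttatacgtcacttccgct
Rps7, chr12:28635954-28636053, minus strand: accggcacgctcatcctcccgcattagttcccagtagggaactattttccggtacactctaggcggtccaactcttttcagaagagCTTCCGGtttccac
Rpl41, chr10:128549169-128549268, minus strand: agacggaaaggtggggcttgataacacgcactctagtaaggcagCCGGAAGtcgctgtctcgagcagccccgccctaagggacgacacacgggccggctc

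The sequences of Rpl3l and Rpl39 hold no match in these 100 bases, and Rpl39l, Rps18, Rps7 and Rpl41 hold 1 each. Rps18 had 13.85 and 13.83 in K5-IKKbeta and 13.77 and 13.81 in WT pools, Rps7 had 13.87 and 13.96 in K5-IKKbeta and 13.85 and 13.89 in WT pools, and Rpl41 had 14.17 and 14.22 in K5-IKKbeta and 14.23 and 14.27 in WT pools. Their fold changes were 0.05, 0.05 and -0.06.

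Other messenger RNAs with a pyrimidine tract, elongation factors among them, were set beside the members. Of 15 tested, none passed in limma (1 had an unadjusted p under 0.05), and their median fold change was -0.02. Eif4b, an initiation factor, had 11.68 and 11.56 in K5-IKKbeta and 11.28 and 11.34 in WT pools (fold change 0.31, adjusted p = 0.0574). It passed with the filter at the 60th percentile (adjusted p = 0.0441) and with limma's trend and robust settings (0.0327). The elongation factor Eef2 had 13.30 and 13.20 in K5-IKKbeta and 13.03 and 13.06 in WT pools (fold change 0.21, adjusted p = 0.153), while the mean of all its probe sets gave a fold change of -0.27. Fau, whose product is cut to yield a small subunit protein, had 13.36 and 13.24 in K5-IKKbeta and 13.10 and 13.22 in WT pools (fold change 0.14, adjusted p = 0.343).

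Genes that build ribosomes came next. Of 54 tested genes of ribosome assembly and ribosomal RNA processing, 3 were lower and none higher (5.56%), with a median fold change of -0.10. Among all tested genes 10.6% were lower and 33.9% passed either way. Wdr12, part of a complex that matures the large subunit, had 8.37 and 8.59 in K5-IKKbeta and 9.09 and 9.32 in WT pools (fold change -0.72, limma adjusted p = 0.00786). Nhp2, a protein of the particles that modify ribosomal RNA, had 11.31 and 11.36 in K5-IKKbeta and 11.75 and 11.84 in WT pools (fold change -0.46, adjusted p = 0.0137). The assembly factor Rpf2 was lower by a fold change of -0.46 (adjusted p = 0.0234). In each of the 3 genes both K5-IKKbeta pools lay below both WT pools. The median fold change of the list was -0.18 without WT pool 1 and -0.03 without WT pool 2. After a new quantile normalization 13 genes were lower.

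Of 15 tested genes of RNA polymerase I, which transcribes ribosomal RNA, and its factors, 2 were lower and none higher (13.3%), with a median of -0.15. Over all tested genes 10.6% were lower and 33.9% passed either way. Taf1b, of the factor that loads the polymerase, had 7.58 and 7.98 in K5-IKKbeta and 8.33 and 8.59 in WT pools (fold change -0.68, limma adjusted p = 0.0228). The subunit gene Polr1e had 7.26 and 7.42 in K5-IKKbeta and 7.75 and 7.86 in WT pools (fold change -0.46, adjusted p = 0.0194). Neither passed without WT pool 1 or without WT pool 2. With an array left out the median of the list ran from -0.19 to -0.11. After a new quantile normalization 5 genes were lower.

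Of 4 tested kinases with an Rps6k symbol 2 were lower, against 10.6% of all tested genes, and 2 more were too dim to test. Rps6kb2, which phosphorylates Rps6 protein, had 9.01 and 8.97 in K5-IKKbeta and 9.55 and 9.71 in WT pools, both lower than WT with little spread (fold change -0.64, limma adjusted p = 0.0054, and 0.0525 without WT pool 2). Rps6ka6, of the related kinases downstream of Erk, had 9.50 and 9.36 in K5-IKKbeta and 9.77 and 9.99 in WT pools (fold change -0.45, adjusted p = 0.0294), a call lost without either WT pool or K5-IKKbeta pool 2. In the list of mTOR complex 1 and regulators of messenger RNAs with a pyrimidine tract, 0 of 15 passed in limma (1 had an unadjusted p under 0.05). The median of this list was 0.14. Akt1s1, an inhibitor within the complex, had a fold change of 0.34 (adjusted p = 0.07), and the transcription factor gene Mycn -0.35 (adjusted p = 0.149).

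Mitochondrial ribosomal proteins, encoded in the nucleus for the organelle's own ribosome, were compared as the most like family. Of 76 tested, 9 were higher and 1 lower (13.2%, against 33.9% of all tested genes), with a median fold change of 0.10. After a new quantile normalization 4 were higher and 3 lower (median 0.03), and with hair shaft genes left out before it 4 were higher and 4 lower (median 0.02). Mrpl27 had 10.28 and 10.32 in K5-IKKbeta and 9.62 and 9.80 in WT pools (fold change 0.59, limma adjusted p = 0.0076). Mrpl14 was higher by 0.41 (adjusted p = 0.0269, and 0.066 after a new quantile normalization) and Mrps16 by 0.39 (adjusted p = 0.0266). Mrpl38 was higher by 0.39 on its brightest probe set (adjusted p = 0.0233), and the mean of all its probe sets gave -0.00188. Fewer of its genes passed in each fit with an array left out, where 1 group holds 1 pool. The median fold change of the family was 0.04 without WT pool 1 and 0.16 without WT pool 2. It was 0.15 without K5-IKKbeta pool 1 and 0.02 without K5-IKKbeta pool 2. Whether the family differed from the cytosolic one was not tested.

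**Figure D5:**
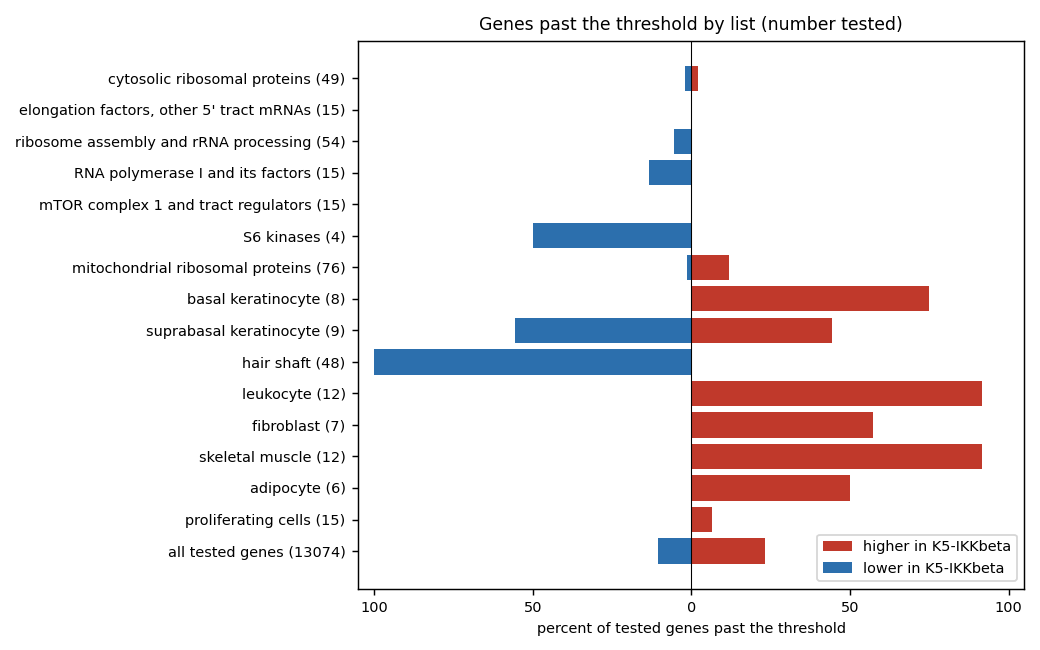
Percent of the tested genes of each list (number tested in brackets) that were higher (red, to the right) or lower (blue, to the left) in K5-IKKbeta skin past an adjusted p of 0.05. Cytosolic ribosomal proteins stand at 4.08% in both directions together, all tested genes at 33.9%, and hair shaft genes at 100% lower.

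Of proliferation markers, 1 of 15 tested was higher (Mcm6, fold change 0.62), with a median of 0.22. Over all tested genes 23.4% were higher and 10.6% lower. Lists of tissue parts had more calls. Basal keratinocyte markers were higher in 6 of 8 (median 0.49), fibroblast markers in 4 of 7 (median 0.70) and adipocyte markers in 3 of 6 (median 0.48). Suprabasal markers were higher in 4 and lower in 5 of 9. The part of these tissue differences in the members' values was not tested.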

How the data were processed

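The deposited values are RMA expression values on the log2 scale, per the submitters' processing notes for RMA and per the values for the log base; RMA corrects background, normalizes arrays by quantiles and summarizes probes per probe set. No source used here gives its version, software or build. Biotinylated RNA was made from 5 micrograms per array, per the labels. The table held 45101 probe sets: 34958 had 1 platform symbol, 932 several and 9211 none. By gene identifier in the RefSeq table, 0 symbols changed.

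For each gene the brightest probe set was used, and genes whose mean exceeded 6.33, the 40th percentile over probe sets, were tested, 13074 in all. limma 3.58.1 in R 4.3.3 (lmFit, eBayes, two-sided) compared 2 with 2 arrays, each a pool of mice, with p-values adjusted by Benjamini-Hochberg over the whole table, at a threshold of 0.05. The number of arrays limits the precision; no batch is given in the sources used here. Bright ribosomal signals lie near the top of the scale, and compression there was not tested. Scanner files were not analysed here.

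Members and lists were chosen with earlier results of these data known. Genes named are the members past the threshold, the paralogs with their partners, Rplp0, Rplp2, Rpsa, members not tested, and of each related list up to 4 changed genes or the 2 of smallest p. Other named genes, Krt14, Tnnt3, Mcm6, Rpl12, Rpl14 and Rps3 among them, fall outside this rule and were picked. Tested on simulated data for 13074 genes, the comparison called 8 of 67 genes at 1.5-fold, 53 of 67 at 2-fold and all 66 at 4-fold, with 7 false calls. There 200 genes were changed and 134 called in all, against 4436 called in the data. The adjustment is stricter with fewer changed genes, so these shares do not give the power in the data. Alternatives were other filters, the mean of all probe sets, no _s_at or _x_at probe sets, new normalizations, other eBayes settings, a replicate block and each array left out. With an array left out, 1 group holds 1 pool, and the p-values measure only the spread between the 2 pools of the other group. Calls gained or lost in such fits are description only.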

Additional observations from a re-analysis of the deposited data

How the results depend on the processing

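Members higher numbered 1 and lower 1; the numbers lower became 2 with no filter (Rps16 added), 2 without probe sets ending in _s_at or _x_at (Rps9 added), 2 with arrays centred on their median (Rpl12 added), and 3 both with a new quantile normalization and with hair shaft genes left out before it (Rpl12 and Rpl14 added). With each array left out in turn, 1 to 2 were higher and 0 to 4 lower, and 2311 to 4631 of all tested genes passed, in place of 4436. The members' median fold change of 0.03 was -0.0112 with the mean of all probe sets, -0.00644 with arrays centred and -0.0316 with hair shaft genes left out, and 0.0131 to 0.0454 with an array left out. The subunits' difference of -0.04 was 0.0165 with the mean of all probe sets and -0.0418 to 0.0176 with an array left out. For subsets added after values were seen, under the main settings, proteins proper had 0 higher and 1 lower (Rps6). Members above 12 had 0 higher and 0 lower there. New quantile normalization moved the median over all tested genes to 0.02 and the share higher among called genes to 59.2%, in place of 68.9%; with hair shaft genes left out these were 0.01 and 57.9%, and with arrays centred 63.9%. The cause was not tested.

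The pools share replicate numbers, but nothing in the labels says that a number pairs them, and deviations of same-numbered pools correlated at 0.253 over 13074 genes. With the replicate block 4553 genes passed. Calls were lost for Rps6 (adjusted p = 0.0506) and Rps6ka6 (0.0541) and gained for Rpl14 (0.0442, lower) and Mycn (0.0419, lower), and 6 ribosome assembly genes were lower in place of 3. Among genes named by the rule, the mean of all probe sets turned the sign for Mrpl38 (-0.00188), Eef2 (-0.27), Rpsa (-0.12) and Rps4x (-0.13). Without _s_at and _x_at probe sets it turned for Mrpl38 (-0.13). Of the other members, the mean of all probe sets turned Rpl13a (-0.07), Rps3 (-0.17), Rps9 (-0.26), Rps18 (-0.11), Rps20 (-0.04) and Rps24 (-0.01). Rps9 also turned without _s_at and _x_at probe sets (-0.36). Among genes named by the rule, fold changes near 0 also turned. These were Rps4x with arrays centred (-0.0243) and with hair shaft genes left out (-0.0205), and Rplp0 with quantile normalization (0.0234). With an array left out in turn, Rplp0 ran from -0.0666 to 0.0517 and Rpl39 from -0.033 to 0.0279. Of 403 single-gene values under alternatives, for genes named by the rule only, 12 turned, 31 lost a call, 11 gained one and 349 did none of these.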
